A study of Mus musculus with 2 samples.

Results

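Transcripts of 9 genes of the Nodal/activin pathway were examined in mouse pluripotent cells: the ligand Nodal, its co-receptor Tdgf1 (Cripto), the type II receptor Acvr2b, the effector Smad2, the secreted inhibitors Lefty1, Lefty2 and Fst, and the intracellular inhibitors Smad7 and Skil. All 9 symbols were found once each among the 32286 features of the count tables. The genes were chosen by symbol, with their levels in these libraries already known, so their values are given as a description and no p-value is attached to any of them.

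Nodal and activin bind type II and type I serine/threonine kinase receptors, which phosphorylate Smad2 and Smad3. With Smad4 and partners such as Foxh1 these enter the nucleus and switch on targets that include Nodal, Lefty1 and Lefty2, so the pathway feeds forward and also makes its own inhibitors. In the epiblast and in epiblast-like cells the pathway supports the formative and primed states and patterns the embryo, and follistatin, the product of Fst, binds activin outside the cell.

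The study compared wild-type (WT) cells with cells lacking Cnot8, a deadenylase subunit of the Ccr4-Not complex that shortens mRNA tails. The cell states compared were sequenced as 1 droplet library each: embryonic stem cells in serum with LIF on feeder cells (ESCs, 0 h) and epiblast-like cells after 48 h on Matrigel in N2B27 medium with serum replacement, bFGF at 12 ng/ml and activin A at 20 ng/ml (48h-EpiLCs). The WT cells were marked by tdTomato, through the ROSA mT/mG allele, and the study gives no strain for this reporter line. The Cnot8 KO cells, without that reporter, came from mutant mice made in the ICR strain. They grew from blastocysts of matings between carriers of a CRISPR-made exon 2 mutation, with a single colony picked for each line. Equal cell numbers of the lines were pooled before each library was made, and the genotype entry of both libraries reads wild type although their titles name both lines.

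Cells were kept at 1000 or more detected genes and at most 10% mitochondrial UMIs, where a UMI (unique molecular identifier) stands for 1 captured mRNA molecule. WT cells were then those with a tdTomato UMI and none of Ddx3y, Eif2s3y, Kdm5d and Uty, and Cnot8 KO cells those with no tdTomato UMI and 2 or more of these Y-linked genes. This left 435 WT and 2978 Cnot8 KO cells of 11054 ESCs, and 368 WT and 2977 Cnot8 KO cells of 9400 48h-EpiLCs. The other 7641 and 6055 cells had too few of these UMIs or carried both kinds, and were in no class. An alternative rule, called line-marking genes below, added Dera and Slc25a13 to tdTomato, and Ipp and BC023719 to the Y-linked genes. It asked for 2 or more UMIs of a line's own genes and none of the other line's. The study does not name the added genes as markers, and they were chosen with earlier results of these data known. This rule is therefore no independent check of the lines. Line, any difference in strain background, sex-linked transcripts, reporter and Cnot8 genotype cannot be told apart here, nor can stage, medium and library. The study's methods form EpiLCs from ESCs kept in 2i/LIF medium (kinase inhibitors with LIF). A ratio between stages therefore need not be a change that started from these serum ESCs.

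The 4 classes held 6154790 to 59291903 UMIs, with medians of 13151 to 17628 per cell, and 41 barcodes occurred in both libraries, 2 of them in classed cells. Levels below are CPM, the UMIs of a gene scaled to a class total of 1000000, with exact 95% Poisson intervals, and ratios carry exact 95% binomial intervals. Both cover counting error only, since each class is 1 set of cells of 1 library. Cnot8 itself was at 43.1 CPM in WT ESCs against 72.1 CPM in Cnot8 KO ESCs, and among 48h-EpiLCs at 49.7 CPM in WT and 62.6 CPM in Cnot8 KO cells. These libraries read the 3′ end of transcripts, away from the targeted exon, so this level does not check the label. The stage labels were borne by Fgf5, a formative gene, at 2.76 CPM in WT ESCs and 53.4 CPM in WT 48h-EpiLCs, and by Zfp42, a naïve gene, at 304 and 37.5 CPM.

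Cells of other types were sought by detection of 3 or more listed markers of a type. The 8 fibroblast markers summed to 13.2 CPM in WT ESCs, 40.7 CPM in Cnot8 KO ESCs, 9.16 CPM in WT 48h-EpiLCs and 12.1 CPM in Cnot8 KO 48h-EpiLCs. Lum was at 0 in both WT classes, and Col3a1 and Postn were at 0 in WT 48h-EpiLCs. The 8 primitive endoderm markers summed to 19.0, 34.0, 6.59 and 10.4 CPM in the same order, with Sox7 and Pdgfra at 0 in WT 48h-EpiLCs. In all, 9 WT and 135 Cnot8 KO ESCs carried 3 or more fibroblast, primitive endoderm or 2-cell markers, against 0 WT and 18 Cnot8 KO 48h-EpiLCs. Ratios were therefore also computed without these cells.

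Nodal, the ligand, was detected in every class. It was at 67.1 CPM (60.8 to 73.9) in WT ESCs, 79.7 CPM (77.1 to 82.3) in Cnot8 KO ESCs, 48.7 CPM (43.4 to 54.5) in WT 48h-EpiLCs and 60.3 CPM (58.3 to 62.3) in Cnot8 KO 48h-EpiLCs. The order from high to low was Cnot8 KO ESCs, WT ESCs, Cnot8 KO 48h-EpiLCs and WT 48h-EpiLCs, and the intervals of WT ESCs and Cnot8 KO 48h-EpiLCs overlapped. Nodal was thus lower in 48h-EpiLCs by similar factors, to 0.726 (0.624 to 0.844) of the ESC level in WT and 0.757 (0.722 to 0.793) in Cnot8 KO cells, and 1.19-fold (1.07 to 1.32) and 1.24-fold (1.10 to 1.40) higher in Cnot8 KO than in WT cells of the 2 stages.

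Tdgf1, the co-receptor that Nodal needs, went down in order across the classes with no overlap of intervals. Its levels were 852 CPM (829 to 875) in WT ESCs, 702 CPM (694 to 710.01) in Cnot8 KO ESCs, 641 CPM (621 to 661) in WT 48h-EpiLCs and 483 CPM (477 to 489) in Cnot8 KO 48h-EpiLCs. After each cell was thinned to 5000 UMIs, a Tdgf1 UMI was present in 96.8% of WT ESCs and 84.4% of Cnot8 KO 48h-EpiLCs, and cells with none made up 3.23% and 15.6%.

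The Tdgf1 promoter is shown because it alone held AATNNACA, a loose Foxh1-like pattern in which N is any base. This holds among the 3 of 9 genes matched in the RefSeq promoter table (Nodal, Tdgf1 and Acvr2b, GRCm38.p6, 300 bases around the start). Lefty1, Lefty2, Fst, Smad2, Smad7 and Skil were not matched. The pattern AATNNACA was searched on both strands with the Smad motif CAGAC, and the matches shown do not overlap. Both AATNNACA matches of Tdgf1 read AATTTACA, and binding of Foxh1 to them was not tested. The stretch below lies on the minus strand at chr9:110946232-110946305, with capitals at 2 matches to AATNNACA and 1 to CAGAC, and the last match ends 93 bases before the annotated start.
Tdgf1: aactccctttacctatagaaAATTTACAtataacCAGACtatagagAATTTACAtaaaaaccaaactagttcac
Of 32851 start regions of this length, 12.2% held AATNNACA and 49.6% held CAGAC. The Acvr2b region held 1 CAGAC and no AATNNACA, and the Nodal region held neither.

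Acvr2b, which binds both activin and Nodal, was higher in 48h-EpiLCs. It was at 22.4 CPM (18.8 to 26.5) in WT ESCs, 26.9 CPM (25.4 to 28.4) in Cnot8 KO ESCs, 37.3 CPM (35.7 to 38.9) in Cnot8 KO 48h-EpiLCs and 43.4 CPM (38.4 to 48.9) in WT 48h-EpiLCs. The intervals overlapped between the lines at each stage and not between the stages. The Cnot8 KO over WT ratio was 1.20 (1.004 to 1.44) in ESCs and 0.859 (0.756 to 0.978) in 48h-EpiLCs. The stage ratio was 1.94 (1.57 to 2.39) in WT and 1.39 (1.29 to 1.49) in Cnot8 KO cells. An antisense gene, Gm47320, overlaps Acvr2b at chr9:119402118-119434995 (GRCm38).

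Smad2, the effector, was highest in Cnot8 KO ESCs, at 54.1 CPM (51.9 to 56.3). It was at 36.9 CPM (35.4 to 38.5) in Cnot8 KO 48h-EpiLCs, 32.0 CPM (27.7 to 36.8) in WT ESCs and 28.6 CPM (24.6 to 33.1) in WT 48h-EpiLCs, and the intervals of these neighbours overlapped. The Cnot8 KO over WT ratio was 1.69 (1.46 to 1.96) in ESCs but 1.29 (1.11 to 1.51) after 48 h. In thinned cells a Smad2 UMI was seen in 12.2% of WT and 23.6% of Cnot8 KO ESCs.

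**Figure D1:**
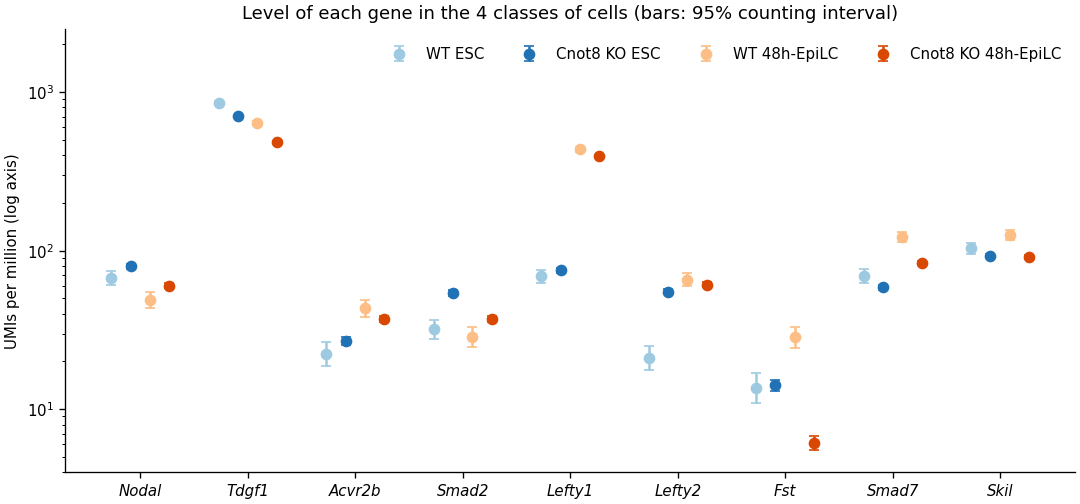
Level of each of the 9 genes (x axis) in CPM on a log axis, for the 4 classes of line and stage, with bars for the 95% counting interval. Lefty1 stands at 68.7 and 75.04 CPM in the ESC classes, far under the 435 and 395 CPM of the 48h-EpiLC classes, Lefty2 is low in WT ESCs alone (21.1 CPM), and Fst is lowest in Cnot8 KO 48h-EpiLCs (6.11 CPM).

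Lefty1 and Lefty2 encode close relatives that bind Nodal and its co-receptor and block signalling. They lie on the plus strand of chromosome 1 (GRCm38), Lefty2 at chr1:180893108-180899103 and Lefty1 at chr1:180935022-180938400. In GENCODE their coding sequences are 91.9% identical over 1107 bases. The last 500 bases of the transcripts, where reads of these libraries fall, were searched against all other GENCODE transcripts. For none of the 9 genes was there a match of at least 90 bases at 90% identity or more to another gene on the same strand. Reads from the coding part could still be shared between Lefty1 and Lefty2. For Acvr2b the transcript searched had a 3′ UTR of 54 bases. Most of its last 500 bases were therefore coding, and any longer 3′ end was not covered.

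Of the 9 genes, Lefty1 differed most between the stages. It was at 68.7 CPM (62.3 to 75.6) in WT ESCs, 75.04 CPM (72.5 to 77.6) in Cnot8 KO ESCs, 435 CPM (419 to 452) in WT 48h-EpiLCs and 395 CPM (389.5 to 399.7) in Cnot8 KO 48h-EpiLCs. The intervals of the 2 ESC classes overlapped, and both 48h-EpiLC classes stood above them, 6.33-fold (5.71 to 7.03) in WT and 5.26-fold (5.07 to 5.45) in Cnot8 KO cells. Of all genes measured in both stages, 0.249% had a higher ratio than Lefty1 in WT and 0.127% in Cnot8 KO cells.

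Lefty2 differed between the lines in ESCs and not beyond counting error in 48h-EpiLCs. It was at 21.1 CPM (17.6 to 25.1) in WT ESCs, 55.1 CPM (52.9 to 57.3) in Cnot8 KO ESCs, 61.1 CPM (59.1 to 63.1) in Cnot8 KO 48h-EpiLCs and 65.8 CPM (59.5 to 72.5) in WT 48h-EpiLCs. WT ESCs stood below the other 3 classes, and the intervals of the 2 48h-EpiLC classes overlapped. The Cnot8 KO over WT ratio was 2.61 (2.19 to 3.14) in ESCs but 0.929 (0.839 to 1.03) after 48 h, while the stage ratio was 3.11 (2.55 to 3.82) in WT and 1.11 (1.05 to 1.17) in Cnot8 KO cells. In ESCs thinned to 5000 UMIs, a Lefty2 UMI was present in 8.06% of WT cells (5.68 to 11.04, exact binomial) and 20.1% of Cnot8 KO cells (18.7 to 21.6). Without the cells carrying markers of other types the ESC ratio was 2.54 (2.12 to 3.05).

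Since Ccr4-Not is also an effector of microRNA silencing, the 3′ UTRs were searched for the 6 bases GCACTT, the match to the seed shared by many microRNAs of the miR-290 and miR-302 families of pluripotent cells. The microRNAs were not measured in these libraries. Of 11 mature 3p sequences of these families in RefSeq (GRCm38.p6), 5 had the seed AAGUGCU at bases 2 to 8, and 3 of them are printed with the seed in capitals.
miR-291a-3p: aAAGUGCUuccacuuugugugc
miR-294-3p: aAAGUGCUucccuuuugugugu
miR-302b-3p: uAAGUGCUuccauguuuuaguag
The matching sites of Lefty1 (plus strand, chr1:180938202-180938225) and Lefty2 (plus strand, chr1:180897906-180897929) are shown because they lie in a like context in both genes, and that of Nodal (plus strand, chr10:61425220-61425243) because it does not. Capitals mark the 6 bases.
Lefty1 site: actgtatgcgaaGCACTTacatgt
Lefty2 site: cacccagtttaaGCACTTacatgg
Nodal site: ccagagaggtggGCACTTgtccaa
In Lefty1 and Lefty2 the match runs through base 8 of the microRNA and is followed by an A. The 6 bases occurred in the 3′ UTR of 6 of the 9 genes (Nodal, Smad2, Lefty1, Lefty2, Smad7 and Skil) and of 26.2% of 20686 genes, and the median 3′ UTR was 1101 bases in the 9 genes and 798 bases in all. For each gene the transcript with the longest coding sequence was searched. That of Acvr2b had a 3′ UTR of 54 bases, so sites in a longer one would be missed. A site is a description of the sequence, and its part in any difference between the lines was not tested.

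Fst gave the widest difference between the lines. It was at 13.6 CPM (10.9 to 16.9) in WT ESCs, 14.2 CPM (13.1 to 15.4) in Cnot8 KO ESCs, 28.5 CPM (24.4 to 33.0) in WT 48h-EpiLCs and 6.11 CPM (5.49 to 6.77) in Cnot8 KO 48h-EpiLCs. In 48h-EpiLCs the Cnot8 KO level was 0.215 (0.179 to 0.258) of WT, and 0.043% of all genes measured had a lower ratio. In ESCs the ratio over all classed cells was 1.04 (0.828 to 1.32).

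That ESC ratio rested on a small number of cells. In the Cnot8 KO ESC class 67.0% of Fst UMIs came from the 62 cells with 3 or more fibroblast markers (2.08% of the class). Fst was at 344 CPM (312 to 378) in these cells. The class rule takes any cell without tdTomato and with 2 or more Y-linked UMIs, so it does not leave out male feeder cells. Whether the 62 cells were feeder cells or Cnot8 KO cells was not tested. In the 2445 Cnot8 KO ESCs with no fibroblast marker Fst was at 4.41 CPM (3.74 to 5.16), against 11.8 CPM (9.06 to 15.2) in the 381 such WT ESCs. The WT class held 3 cells with 3 or more fibroblast markers, with 2 Fst UMIs. In Cnot8 KO ESCs the genes whose UMIs went most closely with Fst over 2955 thinned cells were S100a4 (r = 0.50), Cald1 (0.48), Timp2 (0.45), S100a6 (0.44) and Anxa3 (0.42), genes of calcium binding, contractility and matrix. In the other 3 classes no gene reached r = 0.25 with Fst.

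Without cells carrying markers of other types, Fst was at 13.5 CPM (10.7 to 16.8) in 426 WT and 4.15 CPM (3.55 to 4.81) in 2843 Cnot8 KO ESCs, a ratio of 0.307 (0.234 to 0.404). The stage ratio in Cnot8 KO cells then turned from 0.430 (0.376 to 0.490) to 1.48 (1.23 to 1.78), while in WT cells it stayed near its first value, 2.10 (1.61 to 2.77) against 2.09 (1.60 to 2.74). Across all 11054 kept ESCs, Fst was at 7.02 CPM in 9342 cells with 0 fibroblast markers, 8.73 CPM with 1, 71.0 CPM with 2 and 375 CPM with 3 or more. Nodal went the other way over the same cells, from 72.7 to 25.7 CPM, as did Tdgf1, from 759 to 259 CPM, so the marker-rich barcodes still held transcripts of pluripotent cells.

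**Figure D2:**
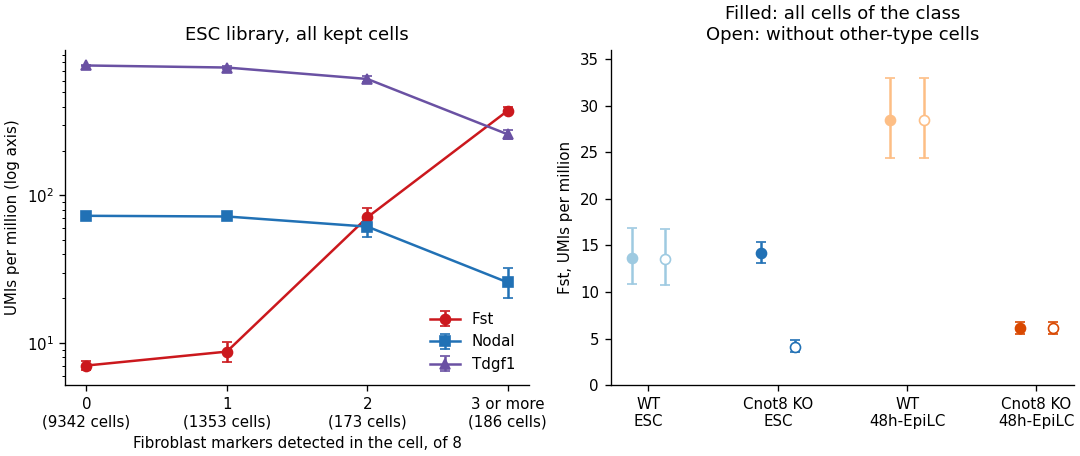
Left, CPM (log axis) of Fst, Nodal and Tdgf1 in all kept ESCs by the number of fibroblast markers detected; right, Fst in the 4 classes with all cells (filled) and without cells carrying markers of other types (open), bars giving the 95% counting interval. Fst climbs from 7.02 to 375 CPM with the markers, and the Cnot8 KO ESC level drops from 14.2 to 4.15 CPM when those cells are left out.

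Fst (minus strand, chr13:114452290-114458951) was also the only one of the 9 genes with the AU-rich nonamer TTATTTATT, an element known from short-lived mRNAs, in its 3′ UTR. For Acvr2b this search covered a 3′ UTR of 54 bases only. The motif occurred in 6.90% of 20686 3′ UTRs. Its 2 copies, on the minus strand at chr13:114453252-114453276 and chr13:114453007-114453031, are printed with the nonamer in capitals.
Fst site 1: gtgtatgcTTATTTATTtgggggga
Fst site 2: agcagttgTTATTTATTgtgaggtc
The shorter AU-rich pentamer ATTTA occurred in 7 of the 9 genes and in 61.6% of all 3′ UTRs searched. Smad2 had 17 copies, Skil 14 and Fst 6. The part of these motifs in any difference between the lines was not tested. An antisense gene, Gm47040, overlaps Fst.

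Smad7, which blocks type I receptors, and Skil, which represses Smad targets, were both highest in WT 48h-EpiLCs. Smad7 was at 69.4 CPM (63.0 to 76.3) in WT ESCs, 58.8 CPM (56.6 to 61.1) in Cnot8 KO ESCs, 122 CPM (114 to 131) in WT 48h-EpiLCs and 84.0 CPM (81.7 to 86.4) in Cnot8 KO 48h-EpiLCs. Skil was at 103 CPM (95.6 to 112), 92.2 CPM (89.4 to 95.1), 126 CPM (118 to 135) and 91.6 CPM (89.2 to 94.1) in the same order. The Cnot8 KO 48h-EpiLC level came next for Smad7 but was the lowest for Skil, where the intervals of the Cnot8 KO classes overlapped. Both genes were lower in Cnot8 KO than in WT cells of each stage, except that with line-marking genes the ESC difference of Skil changed sign (0.06 on the log2 scale). In 48h-EpiLCs the Cnot8 KO over WT ratio was 0.688 (0.638 to 0.744) for Smad7 and 0.726 (0.674 to 0.783) for Skil, and in ESCs 0.848 (0.765 to 0.942) and 0.891 (0.820 to 0.970).

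To set these ratios against the transcriptome, a gene was counted as past the fold when its ratio of CPM + 1 lay 1.5-fold or more from the median ratio of all genes with a mean of 5 CPM or more. All 9 genes passed that minimum in each comparison. Between stages in WT cells 5 of the 9 were past the fold upwards (Lefty1, Lefty2, Fst, Acvr2b and Smad7) and 0 downwards, against 12.4% of 9242 genes upwards and 12.3% downwards. In Cnot8 KO cells Lefty1 was past it upwards and Fst downwards, against 8.99% and 9.58% of 9478 genes. Smad7 (1.43-fold) and Acvr2b (1.39-fold) lay just inside it there, as did Smad2 (0.682) and Tdgf1 (0.688) on the lower side. Without the cells carrying markers of other types, Fst was no longer past the fold in Cnot8 KO cells.

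**Figure D3:**
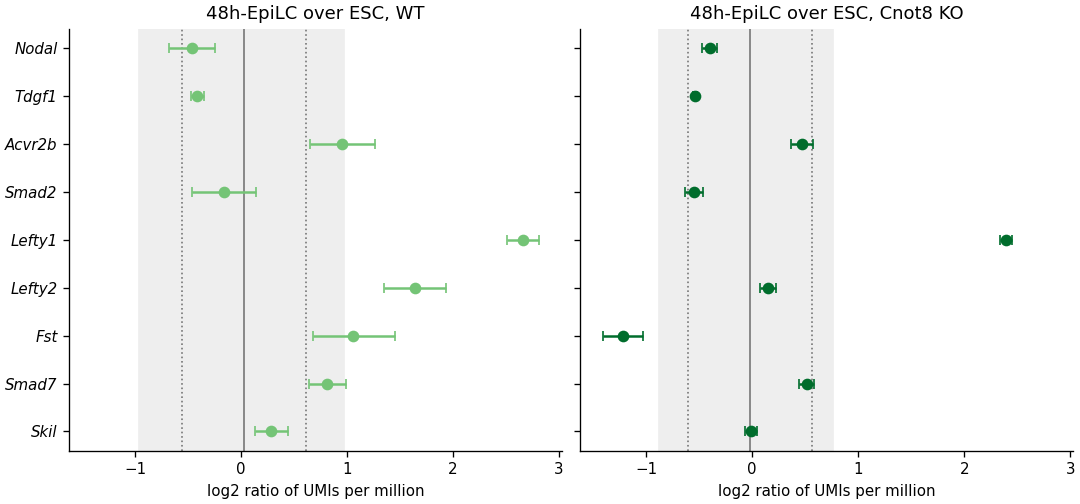
Log2 ratio of CPM, 48h-EpiLC over ESC, of each gene in WT (left) and Cnot8 KO cells (right), with bars for the 95% counting interval, a line at the median of all genes, dotted lines 1.5-fold from it and grey from the 5th to the 95th percentile of all genes. Lefty1 lies far to the right in both panels, while Lefty2 and Fst do so in WT cells only; Fst lies left in Cnot8 KO cells and turns to the right (1.48-fold) without cells carrying markers of other types.

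Between lines in ESCs, Lefty2 and Smad2 were past the fold upwards and 0 of the 9 genes downwards, against 8.53% and 7.69% of 9277 genes. The median ratio of all genes was 0.12 on the log2 scale in this comparison. Without the cells carrying markers of other types Fst was also past it, downwards. Smad2 was no longer past it at a limit of 5% mitochondrial UMIs or with lines set by further line-marking genes. Between lines in 48h-EpiLCs, 0 genes were past it upwards and Fst and Smad7 downwards, against 6.18% and 5.76% of 9385 genes. Skil, at 0.53 below the median on the log2 scale, lay just inside the fold, and Smad7, at 0.61 below, just outside. Smad7 was not past it with line-marking genes, with no condition on Y-linked UMIs for WT cells or with no minimum level. The comparisons share classes of cells, so they are not independent of each other.

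**Figure D4:**
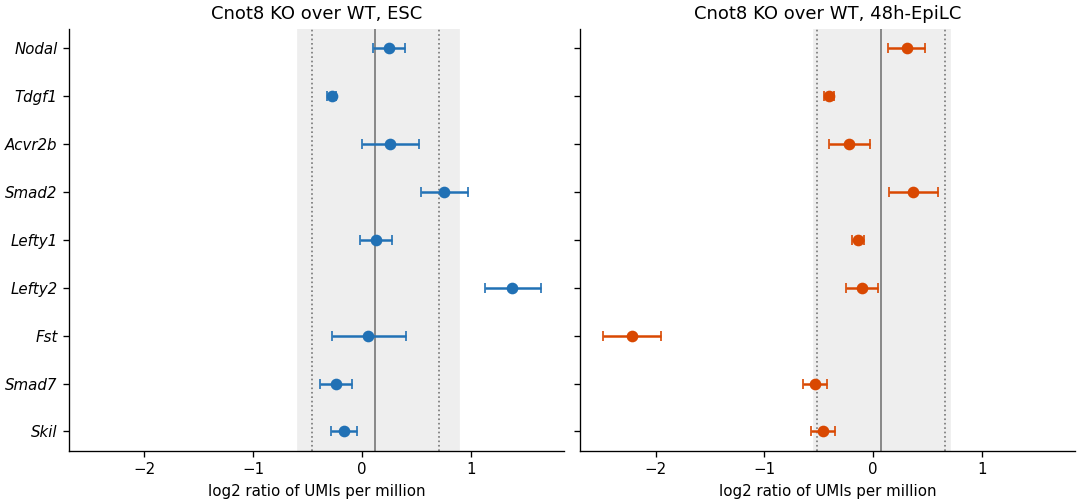
Log2 ratio of CPM, Cnot8 KO over WT, of each gene in ESCs (left) and 48h-EpiLCs (right), with bars for the 95% counting interval, a line at the median of all genes, dotted lines 1.5-fold from it and grey from the 5th to the 95th percentile of all genes. Lefty2 and Smad2 lie to the right in ESCs, and Fst (0.215 of WT) and Smad7 to the left in 48h-EpiLCs; with other-type cells left out Fst lies to the left in ESCs too (0.307 of WT).

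The Cnot8 KO over WT ratio itself was set against stage. Lefty2 was at 1.38 in ESCs against -0.11 after 48 h on the log2 scale, a difference of -1.49 (-1.78 to -1.19, normal approximation on log counts). Fst was at 0.06 and -2.22, a difference of -2.28 (-2.70 to -1.86). Without cells carrying markers of other types the ESC value of Fst was -1.70, and the difference shrank to -0.51 (-0.97 to -0.05), while that of Lefty2 was -1.45 (-1.75 to -1.15). The other 7 genes differed between stages by -0.48 to 0.06 with all cells. The interval of Nodal (-0.16 to 0.28) spanned both signs. Those of the rest lay wholly on the negative side, from Acvr2b at -0.48 (-0.79 to -0.17) to Tdgf1 at -0.13 (-0.19 to -0.07). With line-marking genes the difference of Lefty1 was -0.92 (-1.03 to -0.81) in place of -0.27.

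Among cells of a class, the UMIs of Lefty1 were spread unevenly. After thinning to 5000 UMIs the variance of Lefty1 was 3.69 to 4.36 times its mean in the 4 classes, against 1.16 to 1.37 for Nodal and 1.32 to 1.81 for Lefty2, where independent counting alone gives a ratio near 1. Fst reached 9.93 in Cnot8 KO ESCs, the class with the 62 fibroblast-marked cells, and 0.935 to 1.45 in the other classes. Before thinning, the tenth of ESCs with the most UMIs held 78.2% of all Lefty1 UMIs in WT and 68.7% in Cnot8 KO cells. In 48h-EpiLCs it held 44.7% and 41.9%, and 1 Cnot8 KO cell reached 133 UMIs. Cells with 5 or more Lefty1 UMIs after thinning made up 1.15% of WT and 1.62% of Cnot8 KO ESCs, and 15.8% and 13.6% of 48h-EpiLCs, while 36.2% and 36.8% of 48h-EpiLCs had none.

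**Figure D5:**
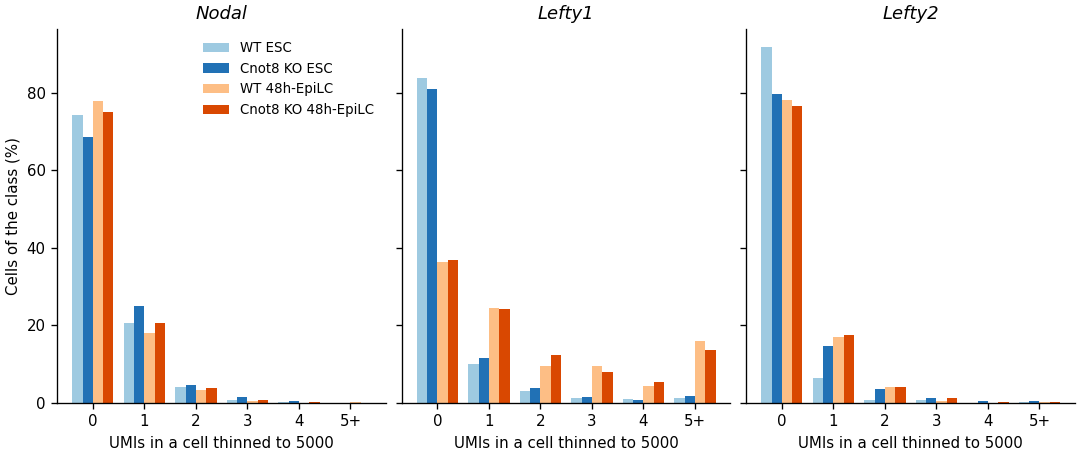
Share of cells (%) of each class with 0, 1, 2, 3, 4 or 5 and more UMIs of Nodal, Lefty1 and Lefty2 after every cell was thinned to 5000 UMIs. Lefty1 has a long tail in 48h-EpiLCs, with 15.8% of WT and 13.6% of Cnot8 KO cells at 5 or more UMIs, against 0.272% and 0.034% for Nodal.

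As a background for shares of cells, the 186 ESCs with 3 or more fibroblast markers (median 14356 UMIs) gave a thinned share of 10.9% for Nodal, 6.32% for Lefty1 and 5.17% for Lefty2. The class shares were 22.1% to 31.4% for Nodal, 16.1% to 63.8% for Lefty1 and 8.06% to 23.2% for Lefty2, all above these. The background share of Lefty2 had an interval of 2.39 to 9.59%, and WT ESCs (8.06%) fell within it. These barcodes also held pluripotent-cell transcripts, a Tdgf1 UMI being present in 44.8% of them after thinning, so they are no clean background.

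Lefty1 and Lefty2 went together in single cells. Over thinned cells their correlation was 0.34 in 434 WT ESCs, 0.27 in 2955 Cnot8 KO ESCs, 0.09 in 367 WT 48h-EpiLCs and 0.16 in 2968 Cnot8 KO 48h-EpiLCs. In Cnot8 KO ESCs a Lefty2 UMI was seen in 36.2% of cells with a Lefty1 UMI and in 16.4% of those without, and in WT ESCs in 22.9% and 5.22%. In 48h-EpiLCs the shares were 25.6% and 15.0% in WT and 26.4% and 17.8% in Cnot8 KO cells. Lefty2 was the gene most correlated with Lefty1 in both ESC classes, of 7239 and 7614 genes ranked. In Cnot8 KO 48h-EpiLCs it was among the 5 most correlated but not the first, and in WT 48h-EpiLCs it was not among them, where Myo1e led (r = 0.24).

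Among the other genes most like Lefty1, Hes6, a transcription factor gene, was one of the 5 of highest correlation in WT ESCs (r = 0.26) and in Cnot8 KO 48h-EpiLCs (0.13). Its own level was 39.8 CPM in WT and 19.0 CPM in Cnot8 KO ESCs, and 171 and 129 CPM in the 48h-EpiLC classes.

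Nodal itself went weakly with its targets. Its correlation with Lefty1 was 0.06 to 0.12 in the 4 classes, and its highest correlation with any gene was 0.27 in WT 48h-EpiLCs, with Ramp3, and 0.08 or less in the larger Cnot8 KO classes. Correlations of this size in counts this sparse are given only as values. In Cnot8 KO 48h-EpiLCs, Zfp42, which marks cells that keep naïve transcripts, was the gene with the lowest correlation with Lefty1 (-0.13), and its mean was 0.421 UMIs in thinned cells with a Lefty1 UMI and 0.650 in those without.

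The rest of the pathway was read from a list of 38 genes. Of these, 17 or 18 reached a mean of 5 CPM in each comparison. Between lines in ESCs 5 of 18 were past the fold upwards and 0 downwards, among them the activin subunit gene Inhba, the proprotein convertase gene Furin, the repressor gene Ski and the feedback inhibitor gene Pmepa1. In 48h-EpiLCs 1 of 17, Furin, was past it upwards and 0 downwards. Of all genes 8.53% and 7.69% were past it upwards and downwards in ESCs, and 6.18% and 5.76% in 48h-EpiLCs. The medians were 0.34 and 0.13 on the log2 scale, against 0.12 and 0.07 for all genes.

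Inhba followed Fst in resting on marker-rich cells. It was at 1.79 CPM in WT and 21.4 CPM in Cnot8 KO ESCs, at 739 CPM in the 186 fibroblast-marked ESCs, and at 1.67 and 3.45 CPM in the ESC classes without cells carrying markers of other types, where the WT value stands on 10 UMIs. With lines set by further line-marking genes its ratio turned to 0.745 (0.649 to 0.857). Pmepa1, at 41.1 and 111 CPM, kept a ratio of 2.49 (2.17 to 2.86) without those cells. Ski was at 31.7 and 53.8 CPM, a ratio of 1.70 (1.47 to 1.98). Furin, with 14 UMIs in WT ESCs, was at 2.27 and 8.39 CPM.

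Between stages, 2 of 18 were past the fold upwards and 1 downwards in WT cells, and 1 of 17 upwards and 3 downwards in Cnot8 KO cells. Of all genes, 12.4% and 12.3% were past it in WT and 8.99% and 9.58% in Cnot8 KO cells, and 2 of 18 upwards in WT cells is near that share. Pcsk6, a convertase gene, was past it downwards in both lines, at 0.291 (0.178 to 0.459) and 0.392 (0.338 to 0.453) of the ESC level. Eomes was past it upwards in WT cells on 41 and 24 UMIs, and Inhba and Pmepa1 downwards in Cnot8 KO cells. Of the Inhba UMIs of Cnot8 KO ESCs, 84.7% came from the 62 cells with 3 or more fibroblast markers. The 6 mesendoderm markers summed to 5.20 to 10.5 CPM in the 4 classes, with T and Mixl1 at 0 in WT ESCs and Foxa2 at 0 in WT 48h-EpiLCs. Of the other receptor genes, Acvr1b lay at 1.79 to 4.76 CPM and Acvr2a at 3.68 to 5.52 CPM, and the antagonist gene Cer1 had 0 to 2 UMIs per class.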

How the data were processed

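The authors deposited a matrix of UMI counts per barcode and gene for each library, and per the labels the libraries were made with Chromium Single Cell 3′ v2 chemistry. The submitters' processing notes name Cell Ranger 3.0.2, Seurat 4 and mm10, and the study's methods state that the tdTomato sequence was added to the reference. Counts were read as deposited (13184 and 12427 barcodes). UMIs were summed over the cells of a class, and with 1 library per stage no test was run. No doublet caller was applied: classes exclude cells with tdTomato and 2 or more Y-linked UMIs (6.77% and 7.74% of tdTomato-positive cells), and pairs of cells of 1 line remain. Shares and correlations used cells thinned to 5000 UMIs, leaving out 1 to 23 shallower cells per class. The 9 genes are all named; from the other 38, those past 1.5-fold, and from the 5 genes most correlated with Nodal, Lefty1, Lefty2 and Fst, those described; some genes and sequences that this rule covers are not reported here. Members and lists were chosen with earlier results of these data known. Alternatives covered scaling (TMM, edgeR 4.0.16), pseudocount, filters, line rules, other cell types and depth. Sequences came from GENCODE M21 and RefSeq; alignments used BLAST 2.17.0, other steps Python 3.11.15. The functions were tested on simulated data.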

Additional observations from a re-analysis of the deposited data

Results flagged for a closer look

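Results for 3 genes went in opposite directions, relative to the median gene, in the 2 stages or the 2 lines. With 1 library per stage, none of these differences was tested. The Cnot8 KO over WT ratio of Lefty2 lay 1.22 above the median of all genes in ESCs and 0.18 below it in 48h-EpiLCs on the log2 scale, so that the 48h-EpiLC minus ESC difference was -1.40. For Acvr2b the same ratio lay 0.13 above the median in ESCs and 0.29 below it in 48h-EpiLCs, a difference of -0.41. The interval of its ESC ratio, 1.20 (1.004 to 1.44), held the median ratio of all genes, 1.09. Its place above the median in ESCs is thus within counting error. The 48h-EpiLC over ESC ratio of Fst lay 0.98 above the median in WT and 1.08 below it in Cnot8 KO cells, a difference of -2.06, and the opposite direction was gone without cells carrying markers of other types.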

How the results depend on the processing

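Each of the 9 genes was recomputed under 14 alternatives in 4 comparisons. Of 504 log2 ratios 442 stayed within the counting interval of the main value, 59 moved beyond it and 3 reversed. All 3 were Fst between stages in Cnot8 KO cells, from -1.10 to 0.47 without cells carrying 3 or more markers of other types, 0.61 without those carrying 2 or more, and 0.33 with lines set by further line-marking genes and the former cells left out; the alternatives with 2 markers and with both changes were chosen after seeing the data. Lefty1, Lefty2, Fst, Acvr2b and Smad7 were past the fold in WT cells between stages under every alternative run. The number of genes past the fold was otherwise 1 in place of 2 in ESCs at 5% mitochondrial UMIs (Smad2 lost), and 3 there without other-type cells at either number of markers or without the 1% of cells with most UMIs of the gene (Fst added); it was 1 in place of 2 in 48h-EpiLCs, with no condition on Y-linked UMIs for WT, with line-marking genes, with these and without other-type cells, and with no low-value filter (Smad7 lost); and between stages in Cnot8 KO cells, without other-type cells at either number of markers, also with line-marking genes, and without the 1% of cells with most UMIs of the gene (Fst lost). With line-marking genes, which put 1290 and 4061 ESCs in classes, Smad2 was not past the fold in ESCs and Fst was, downwards (0.573), and Lefty1 was 1.48-fold higher in Cnot8 KO ESCs. No paired analysis was possible because each stage is 1 library without replicate numbers. Counting intervals omit variation between cultures.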
